A study of Homo sapiens with 6 samples.

Results

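The 50 genes described here encode the DNA replication machinery and the factors that commit a cell to S phase. They are a fixed list of symbols, and all 50 were found among the 26364 genes of the series table. All 50 had a mean of at least 10 normalised reads, the minimum for the test, so none was lost to a filter on low values. The genes came in 7 roles: origin licensing, helicase activation, polymerases and primase, the sliding clamp with its loader and the lagging-strand enzymes, nucleotide supply, S-phase ubiquitin ligase and chromatin factors, and the E2F and cyclin E regulators.

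Replication begins in G1, when the origin recognition complex, CDC6 and CDT1 load the ring-shaped MCM helicase onto DNA, a step called licensing. In S phase CDC45 and the GINS complex join the ring and start it, primase and DNA polymerase alpha lay down primers, and polymerases delta and epsilon extend them on the PCNA clamp that the RFC complex loads. Many of these genes are transcribed in late G1 from promoters bound by E2F factors, and cyclin E with its kinase partner drives the same transition. In tumour lines such as T47D their mRNA levels are commonly read as a measure of how many cells are cycling.

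T47D is an established human cell line from a luminal A breast cancer. The cells received a control siRNA (siNC, Ambion 4390846, 3 libraries) or an siRNA against ELF5, an ETS-family transcription factor (siELF5, Ambion AM16708, 3 libraries), and RNA was taken 48 h later. Each group thus rests on 1 siRNA product, so the target and the product cannot be told apart. The labels do not say whether replicates were separate cultures, so a p-value here measures only how far these 6 libraries spread, which may be technical.

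The libraries held 66810743 to 83680984 assigned reads, and ELF5 stood at 27.8% to 28.4% of the siNC mean in the 3 siELF5 libraries, which matches their labels. The luminal markers used for the check (KRT8, KRT18, KRT19, EPCAM, CDH1, ESR1, PGR, GATA3 and FOXA1) were abundant in every library. Their summed normalised read count was 731642 to 778670 in siNC and lower, 677548 to 700684, in siELF5. KRT8 and KRT18 were called lower (-0.41 and -0.45 on the log2 scale), and ESR1, FOXA1, PGR and GATA3 higher (0.45, 0.31, 0.22 and 0.15). Markers of other cell types were low: the 5 leukocyte markers summed to 119.4 to 135.6 in siNC and 145.8 to 191.0 in siELF5, and the 4 endothelial markers to 30.4 to 39.7 and 12.3 to 14.5. The 6 fibroblast markers summed to 4227 to 5409 in siNC and 3378 to 3888 in siELF5, nearly all of it COL1A1, with LUM next, and DCN, COL3A1, COL1A2 and PDGFRB each below a mean of 30. PTPRC, CDH5 and KDR were at 0 in every siELF5 library. The 5 basal markers summed to 725.6 to 779.3 and 1133 to 1179, with KRT5 and KRT14 below a mean of 30. ACTA2 was called higher, from a mean of 356.1 in siNC to 739.3 in siELF5 (limma adjusted p = 6.91e-07). TP63 was also called higher, from 162 to 202.3 (adjusted p = 0.0483), and MYH11 did not pass (adjusted p = 0.616). The part of these differences in the results was not tested. The libraries also differed in how GC-rich transcripts were represented. A score of that, the median deviation of the most GC-rich 10% of genes minus that of a middle class, was -0.41, -0.22 and -0.08 in the siNC libraries and 0.23, 0.29 and 0.22 in the siELF5 libraries, so the groups did not overlap in it.

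Promoters are shown first because E2F control is the feature these genes are best known for. RefSeq promoter sequences (GRCh38.p14, 250 bases before the start site to 50 after it) were matched for 43 of the 50 genes. The E2F motif was searched as TTTGGCGC, TTTCCCGC, TTTGCCGC and TTTCGCGC on both strands, where overlapping matches were allowed because the motif can read on both strands at once. At least 1 match was present in 21 of the 43 promoters (48.8%), against 908 of all 27303 promoters of the same length (3.33%). These promoters were also richer in GC, with a median of 66% against 58.3% of all promoters, and the part of that in the share was not tested. Matches were found in the following promoters of genes the results turn on, printed 5′ to 3′ on the gene's strand with the match in capitals.
POLA1: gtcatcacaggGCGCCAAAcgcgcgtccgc
RFC3: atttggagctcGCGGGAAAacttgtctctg
MCM6: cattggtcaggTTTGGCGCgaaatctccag
PCNA: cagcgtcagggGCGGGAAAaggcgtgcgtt
CDT1: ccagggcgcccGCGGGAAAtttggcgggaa
E2F1: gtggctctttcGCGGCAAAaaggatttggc
DTL: cgtgacgtcagTTTGGCGCggagtttggcg

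These windows lie at chrX:24693770-24693799 (plus strand) for POLA1, chr13:33818083-33818112 (plus) for RFC3, chr2:135876515-135876544 (minus) for MCM6, chr20:5126663-5126692 (minus) for PCNA, chr16:88803743-88803772 (plus) for CDT1, chr20:33686400-33686429 (minus) for E2F1 and chr1:212035729-212035758 (plus) for DTL, all in GRCh38.p14. The capitals of MCM6 and DTL read in the direction of the gene, and those of the others read on the opposite strand. The MCM6 promoter held 4 matches, in 2 overlapping pairs. CCAAT, the box bound by NF-Y, was found in 24 of the 43 promoters (55.8%), against 35.7% of all promoters. TTTGAA or TTCGAA, the letters of the CHR element known from mitotic genes, was found in 2 of the 43 (4.65%), against 16.6% of all promoters and 14 of 19 promoters (73.7%) in a list of G2/M and mitosis genes. A match is a description of the letters and was not tested as a binding site.

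After ELF5 knockdown members were called in both directions, most with small changes. Of the 50, 20 were lower in siELF5, 11 were higher and 19 did not pass the test (limma adjusted p under 0.05). CDC45, the factor that completes the replicative helicase, and POLA1, the catalytic subunit of DNA polymerase alpha, fell most, to 73.6% and 73.8% of siNC. CDT1, the MCM loading factor, rose most, to 169% of siNC, and was the only member past 1.5-fold. Of the 31 called members, the 27 other than CDC45, POLA1, CDT1 and POLD1 lay between 80.3% (CHAF1B) and 123% (DTL) of siNC.

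Of all 16032 tested genes 47.1% were called, 23.3% as lower and 23.8% as higher. Members were lower more often than that (40%) and higher about as often (22%). The median log2 fold change was -0.04 over the members and 0.00 over all genes tested. The siELF5 values lay wholly below the siNC values for 21 members and wholly above them for 10, against 28% and 27.9% of all tested genes (55.9% in either direction). Together the members took similar shares of the libraries: 0.607% to 0.609% of reads in siNC and 0.609% to 0.620% in siELF5. In bulk RNA a smaller fraction of cells in S phase and less RNA per cell cannot be told apart.

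The balance of the 2 directions rested on the scaling. With equal column totals 15 members were higher and 13 lower, and with quantile scaling 13 were higher and 14 lower. With that GC score added to the model as a covariate 3 were higher and 2 lower, where 3.21% and 4.02% of all genes passed and the median standard error over the members went from 0.039 to 0.096. Leaving out siNC replicate 2 gave 8 higher and 13 lower, leaving out siELF5 replicate 1 gave 7 higher and 19 lower, and leaving out siELF5 replicate 2 gave 7 higher and 13 lower. By the adjusted p in the authors' deposited table, 10 members were higher and 19 lower at the same threshold.

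**Figure D1:**
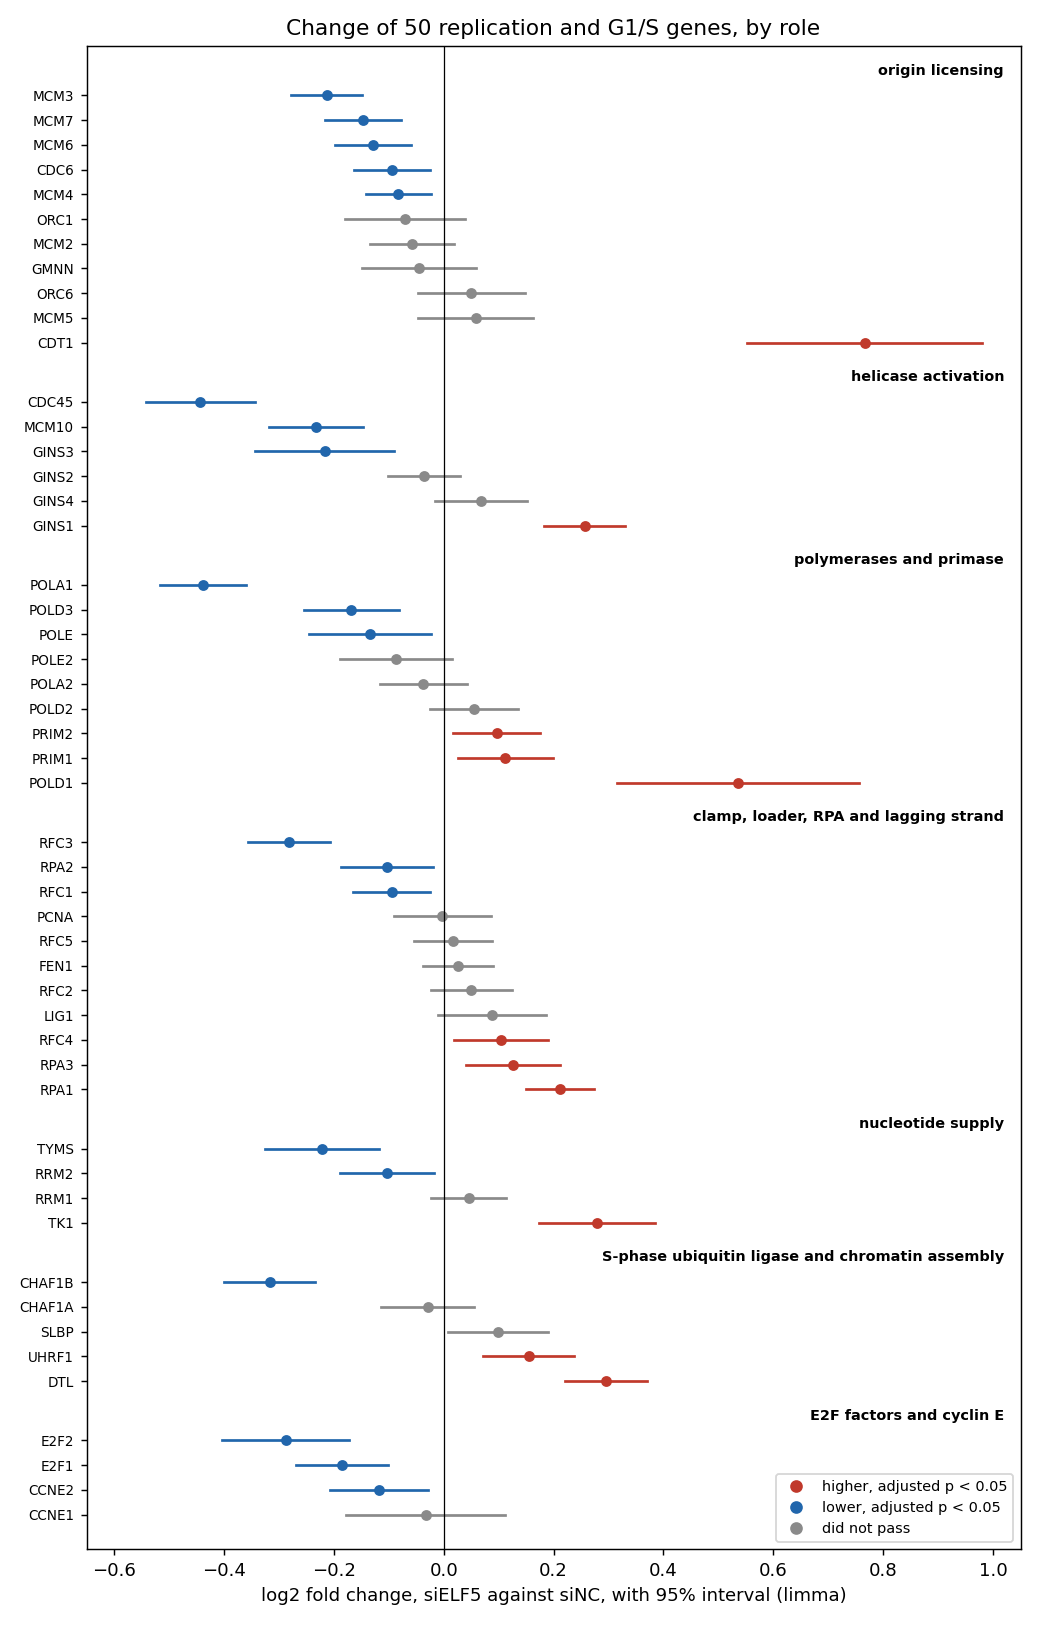
Log2 fold change of each of the 50 genes, siELF5 against siNC, with its 95% interval from limma, grouped by role (3 libraries in each group). Points lie on both sides of 0 in 6 of the 7 roles, most within 0.3 of it, with CDC45 at -0.44, POLA1 at -0.44, POLD1 at 0.54 and CDT1 at 0.77 farthest out.

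Among the 11 licensing genes, 5 fell (45.5%) and 1 rose (9.09%), beside 23.3% and 23.8% of all tested genes. The licensing genes load the helicase. ORC1 and ORC6 are subunits of the origin recognition complex, and CDC6 and CDT1 bring the helicase to it. GMNN (geminin) inhibits CDT1, and MCM2 to MCM7 form the ring. MCM3 had 24793, 24265 and 23878 normalised reads in siNC replicates 1 to 3 and 21437, 20836 and 20644 in siELF5 replicates 1 to 3. The groups did not overlap, and the log2 fold change was -0.21 (SE 0.030, limma adjusted p = 7.84e-05). MCM7 fell by 0.15 on the log2 scale (SE 0.032, adjusted p = 0.00211) and MCM6 by 0.13 (SE 0.032, adjusted p = 0.00517).

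MCM4 and CDC6 fell by 0.08 and 0.09 on the log2 scale, the smallest changes called in this group (adjusted p = 0.027 and 0.0282). Neither passed without siNC replicate 1 (adjusted p = 0.0608 for MCM4 and 0.0752 for CDC6), siNC replicate 2 (0.123 and 0.072) or siELF5 replicate 2 (0.0912 and 0.0968), nor after the GC correction (0.106 and 0.136). The other ring subunits, MCM2 and MCM5, had log2 fold changes of -0.06 (95% interval -0.13 to 0.02) and 0.06 (-0.05 to 0.16). MCM2 passed with -0.09 without siNC replicate 1 (adjusted p = 0.0424) and with -0.11 after the GC correction (adjusted p = 0.00248). Of the 6 ring subunits 4 thus passed, all downward, and the 2 others had intervals that include 0. ORC1, ORC6 and GMNN lay at -0.07, 0.05 and -0.05, with intervals of -0.18 to 0.04, -0.05 to 0.15 and -0.15 to 0.06.

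CDT1 was the exception in this group. It had 2309, 2669 and 3210 normalised reads in siNC and 4850, 4911 and 4087 in siELF5. All siELF5 values were above all siNC values, but the siNC libraries themselves were spread widely. The log2 fold change was 0.77 (SE 0.099, limma adjusted p = 4.45e-05). CDT1 has one of the most GC-rich transcripts among the members (64.9%), and the order of its siNC values is that of the library GC scores. The log2 fold change was 0.33 after the GC correction (adjusted p = 0.000133) and 0.06 with the GC score as a covariate (adjusted p = 0.865).

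Of the 6 genes of helicase activation, 3 fell (50%) and 1 rose (16.7%), beside 23.3% and 23.8% of all tested genes. MCM10, which supports activation of the loaded helicase, CDC45 and the 4 GINS subunits turn the loaded ring into a moving one. CDC45 had 3010, 3000 and 3015 normalised reads in siNC and 2217, 2116 and 2312 in siELF5. The siNC libraries lay very close together here, and every siELF5 library was below all of them. The log2 fold change was -0.44 (SE 0.046, limma adjusted p = 7.68e-06), and it passed under all 19 alternatives (adjusted p at most 0.0449).

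MCM10 fell by 0.23 on the log2 scale (SE 0.040, adjusted p = 0.000398), from 9895, 9623 and 9423 normalised reads in siNC to 8639, 7836 and 8175 in siELF5. The GINS subunits, which form a tetramer, moved in different directions. GINS1 rose from 8315, 7988 and 8097 normalised reads to 9756, 9941 and 9460, with no overlap. Its log2 fold change was 0.26 (SE 0.034, limma adjusted p = 5.29e-05), and this too passed under all 19 alternatives. GINS3, with the lowest level per kilobase of the 4, fell by 0.22 on the log2 scale (SE 0.059, adjusted p = 0.00857). GINS2 was at -0.04 (95% interval -0.10 to 0.03) and GINS4 at 0.07 (-0.01 to 0.15), and GINS4 passed with 0.10 after the GC correction (adjusted p = 0.0159) and with 0.10 under equal column totals (adjusted p = 0.0391).

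Among the 9 polymerase and primase genes, 3 fell and 3 rose (33.3% each), beside 23.3% and 23.8% of all tested genes. POLA1 and POLA2 form DNA polymerase alpha together with the primase subunits PRIM1 and PRIM2. POLA1 had 9389, 9166 and 8904 normalised reads in siNC and 6985, 6628 and 6658 in siELF5. No siELF5 value came near the siNC range, and the log2 fold change was -0.44 (SE 0.036, limma adjusted p = 1.01e-06), past the threshold under all 19 alternatives. The partner subunits did not go down with it: POLA2 lay at -0.04 (95% interval -0.12 to 0.04), and PRIM1 and PRIM2 rose by 0.11 and 0.10. Of the exon bases of POLA2, 35.1% are shared with another gene on the same strand. For PRIM1 16.2% are shared on the same strand and 5.42% on the other, so the values of POLA2 and PRIM1 are uncertain. The exons of POLA1 and PRIM2 share no bases with other genes. The part of this overlap in the comparison was not tested. Both primase calls were weak. After the GC correction they passed with 0.15 and 0.14 (adjusted p = 0.00157 and 0.00218). With the GC score as a covariate they did not pass (0.671 and 0.682). Neither passed without siNC replicate 2 (adjusted p = 0.137 for PRIM1 and 0.115 for PRIM2), siELF5 replicate 1 (0.146 and 0.161) or siELF5 replicate 2 (0.113 and 0.123), and PRIM2 also not without siNC replicate 1 (0.072) or siNC replicate 3 (0.088), nor with edgeR (0.0537) or DESeq2 (0.0566).

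Polymerases delta and epsilon copy most of the genome. POLD3, an accessory subunit of delta, fell by 0.17 on the log2 scale (SE 0.040, adjusted p = 0.00382), and POLE, the catalytic subunit of epsilon, by 0.13 (SE 0.051, adjusted p = 0.046). For POLE the groups overlapped, since siELF5 replicate 3 (14881) exceeded siNC replicates 1 and 3 (14571 and 14827). POLE did not pass without siNC replicate 2 (adjusted p = 0.173), siNC replicate 3 (0.0546), siELF5 replicate 1 (0.117) or siELF5 replicate 2 (0.216), where its log2 fold change was -0.08. POLE passed with -0.15 after the GC correction (0.00588) but not with the GC score as a covariate (0.663). POLE2 lay at -0.09 (95% interval -0.19 to 0.02).

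POLD1, the catalytic subunit of delta, rose from 1384, 1761 and 2022 normalised reads to 2557, 2440 and 2408. The groups did not overlap, but the siNC values spread by more than any siELF5 value differed from another. The log2 fold change was 0.54 (SE 0.102, limma adjusted p = 0.000852). POLD1 has the most GC-rich transcript of the 50 (65%), and its log2 fold change was 0.09 after the GC correction (adjusted p = 0.182) and -0.22 with the GC score as a covariate (adjusted p = 0.376). POLD2 was at 0.06 (95% interval -0.02 to 0.13), and at -0.03 after the GC correction (adjusted p = 0.419).

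**Figure D2:**
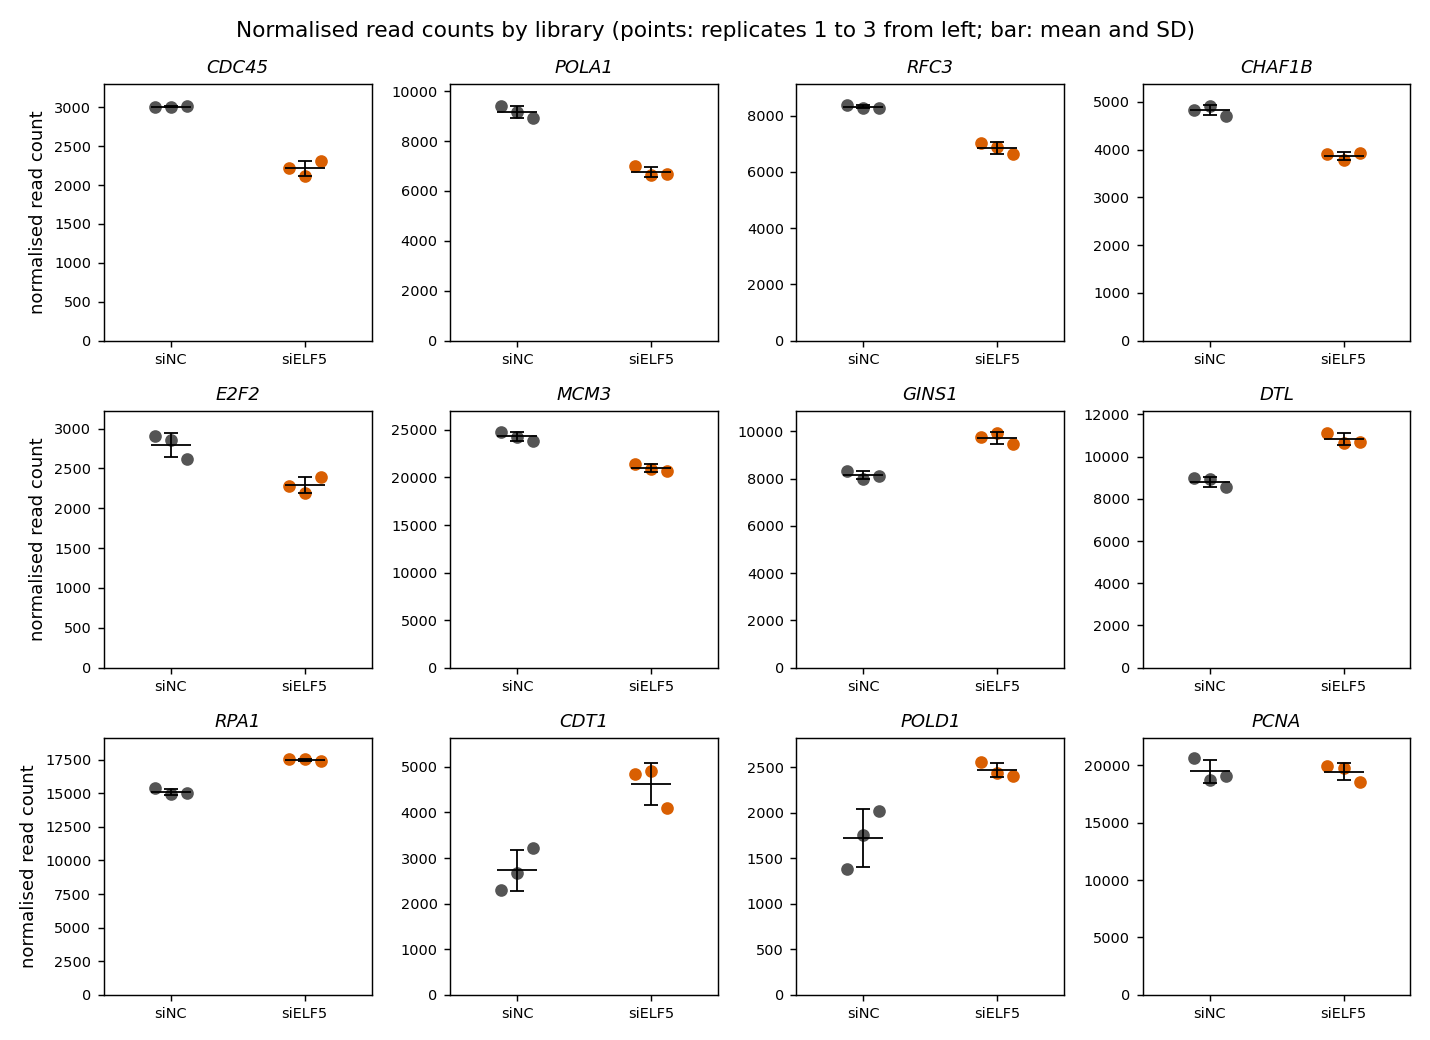
Normalised read counts of 12 of the genes in each of the 6 libraries, with the mean and SD of each group and axes from 0. CDC45, POLA1, RFC3, CHAF1B, E2F2 and MCM3 are lower in every siELF5 library, GINS1, DTL, RPA1, CDT1 and POLD1 are higher, and PCNA overlaps. Relative to their mean, the siNC points of these 12 genes spread most for CDT1 (2309 to 3210) and POLD1 (1384 to 2022).

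The clamp, its loader, the single-strand binding protein RPA and the lagging-strand enzymes gave 3 genes lower, 3 higher and 5 that did not pass. That is 27.3% each way, near the 23.3% lower and 23.8% higher over all tested genes. PCNA, the clamp, had the highest level per kilobase of transcript of all 50 in siNC (14327 normalised reads per kilobase). Its counts were 20608, 18701 and 19102 in siNC and 19943, 19780 and 18572 in siELF5, which overlap. The log2 fold change was -0.00 (95% interval -0.09 to 0.09), and its sign turned under both other scalings (0.03 each), with edgeR and under each GC adjustment, never past the threshold. FEN1 and LIG1, the nuclease and ligase that finish lagging-strand fragments, lay at 0.03 (-0.04 to 0.09) and 0.09 (-0.01 to 0.19).

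RFC1 to RFC5 are the subunits of the clamp loader, and they did not move together. RFC3 fell from 8375, 8288 and 8279 normalised reads to 7022, 6891 and 6619 with no overlap, which is -0.28 on the log2 scale (SE 0.034, limma adjusted p = 2.95e-05). It passed in every fit that left out a library and after the GC correction, but not with the GC score as a covariate (adjusted p = 0.0859). RFC1, the large subunit, fell by 0.09 on the log2 scale and RFC4 rose by 0.10, with adjusted p of 0.0283 and 0.046. RFC1 did not pass without siNC replicate 1 (0.0823), siNC replicate 2 (0.0733), siELF5 replicate 2 (0.0815) or siELF5 replicate 3 (0.0502). RFC4, whose groups overlapped, did not pass without siNC replicate 2 (0.1), siNC replicate 3 (0.149), siELF5 replicate 1 (0.123) or siELF5 replicate 2 (0.189). After the GC correction RFC4 passed with 0.15 (0.00129) and RFC1 did not pass (0.111). With the GC score as a covariate neither passed (0.292 for RFC4 and 0.906 for RFC1). RFC2 and RFC5 lay at 0.05 (95% interval -0.02 to 0.12) and 0.02 (-0.05 to 0.09).

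The 3 subunits of RPA, which coats single-stranded DNA at the fork, also divided. RPA1, the large subunit, had 15372, 14935 and 14986 normalised reads in siNC and 17528, 17522 and 17397 in siELF5. The siELF5 libraries lie close together and all above siNC. The log2 fold change was 0.21 (SE 0.029, limma adjusted p = 6.53e-05), and RPA1 passed under all 19 alternatives. RPA3 rose by 0.13 (SE 0.039, adjusted p = 0.0187) and RPA2 fell by 0.10 on the log2 scale (SE 0.039, adjusted p = 0.0441). RPA3 did not pass without siNC replicate 3 (0.0636), siELF5 replicate 1 (0.0969) or siELF5 replicate 2 (0.0523). RPA3 passed with 0.17 after the GC correction (0.000531) but not with the GC score as a covariate (0.286). RPA2 did not pass without siNC replicate 1 (0.0772), siNC replicate 2 (0.162), siELF5 replicate 2 (0.111) or siELF5 replicate 3 (0.0964), nor with edgeR (0.0813) or DESeq2 (0.0596). GENCODE 29 holds 3 pseudogenes each named after PCNA and RPA2, and 1 each after RFC3, RFC5 and FEN1, which could share their reads. Among the members of other roles, RRM2 has 3 such pseudogenes, TYMS 2 and POLD2 1.

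**Figure D3:**
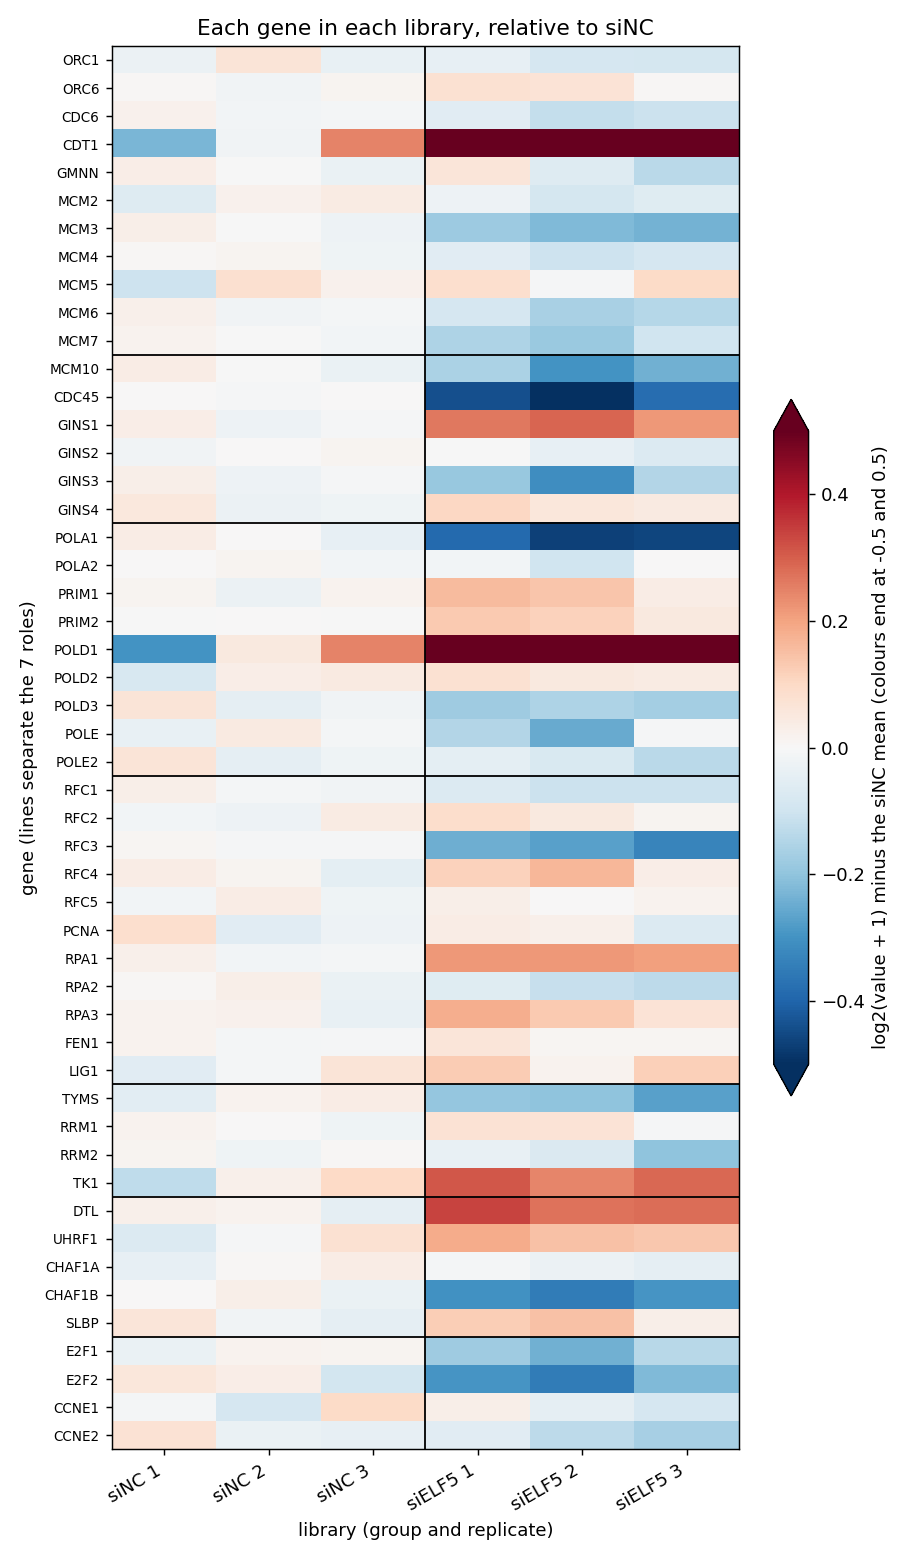
Each of the 50 genes in each of the 6 libraries as log2(value + 1) minus its siNC mean, ordered by role, with colours ending at -0.5 and 0.5. The siNC columns are pale for most genes apart from CDT1 and POLD1, and blue and red rows stand side by side within the GINS, polymerase alpha, RFC and RPA subunits.

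Nucleotide supply was represented by 4 genes, of which 2 fell (50%) and 1 rose (25%), beside 23.3% and 23.8% of all tested genes. TYMS, which makes thymidylate, fell from 2261, 2371 and 2403 normalised reads to 2048, 2041 and 1944, with no overlap. Its log2 fold change was -0.22 (SE 0.048, limma adjusted p = 0.00218), but 46.6% of its exon bases lie opposite exons of ENOSF1 or TYMSOS, and the library kit (TruSeq v2) does not mark strand, so the value is uncertain. RRM1 and RRM2 form ribonucleotide reductase, the enzyme that makes deoxynucleotides. RRM2 fell by 0.10 on the log2 scale (SE 0.039, adjusted p = 0.0455), and RRM1 lay at 0.05 (95% interval -0.02 to 0.11). RRM2 passed only without siELF5 replicate 1 among the fits that left out a library, and did not pass without siNC replicate 1 (0.0786), 2 (0.0868) or 3 (0.0827) or siELF5 replicate 2 (0.0535) or 3 (0.129, log2 fold change -0.05). RRM1 passed with 0.07 without siELF5 replicate 3 (0.0491) and with 0.09 after the GC correction (0.00761).

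TK1, the salvage enzyme thymidine kinase, went the other way. It had 11904, 13248 and 13948 normalised reads in siNC and 16112, 15395 and 15849 in siELF5, which do not overlap, a rise of 0.28 on the log2 scale (SE 0.049, limma adjusted p = 0.000447). Its transcript is GC-rich (62.8%), and the direction turned with both GC adjustments, to -0.01 after the GC correction (adjusted p = 0.803) and -0.02 with the GC score as a covariate (adjusted p = 0.915).

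Among the 5 S-phase ubiquitin ligase and chromatin genes, 2 rose (40%) and 1 fell (20%), beside 23.8% and 23.3% of all tested genes. DTL, the substrate receptor of the CRL4 ligase that degrades CDT1 on replicating DNA, rose from 8969, 8923 and 8547 normalised reads to 11142, 10629 and 10697. The lowest siELF5 value was well above the highest siNC value. The rise of 0.30 on the log2 scale (SE 0.034, limma adjusted p = 1.91e-05) passed under all 19 alternatives, with an adjusted p of 0.00609 with the GC score as a covariate. UHRF1, which reads hemimethylated DNA behind the fork, rose by 0.16 (SE 0.038, adjusted p = 0.00489). It was at 0.17 after the GC correction (adjusted p = 0.000454) and at -0.04 with the GC score (adjusted p = 0.832).

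CHAF1A and CHAF1B are subunits of the CAF-1 histone chaperone, which deposits nucleosomes on new DNA. CHAF1B fell from 4832, 4921 and 4711 normalised reads to 3903, 3782 and 3926, without overlap (-0.32 on the log2 scale, SE 0.038, limma adjusted p = 2.53e-05). CHAF1A, its larger partner, lay at -0.03 (95% interval -0.11 to 0.06). SLBP, which binds replication-dependent histone mRNA, lay at 0.10 (0.01 to 0.19, adjusted p = 0.0683) and passed with 0.13 without siNC replicate 1 (0.0204) or siELF5 replicate 3 (0.0187) and after the GC correction (0.00871).

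The E2F and cyclin E genes were the only role in which every log2 fold change was below 0 in the main test. Of the 4, 3 were called lower (75%) and 0 higher, beside 23.3% and 23.8% of all tested genes. Without siNC replicate 3 the log2 fold change of CCNE1 turned to 0.01. E2F2 had 2902, 2858 and 2617 normalised reads in siNC and 2276, 2191 and 2393 in siELF5. The groups did not overlap, and the log2 fold change was -0.29 (SE 0.053, limma adjusted p = 0.00071). It was -0.32 after the GC correction (adjusted p = 7.82e-05), but -0.06 with the GC score as a covariate (adjusted p = 0.856). E2F1 had 5932, 6138 and 6120 normalised reads in siNC and 5366, 5129 and 5511 in siELF5. It fell in each siELF5 library although its transcript is GC-rich (62.5%), with a log2 fold change of -0.19 (SE 0.038, adjusted p = 0.0016) and -0.45 after the GC correction (adjusted p = 2.73e-07). As a covariate the GC score left it at -0.22 (adjusted p = 0.207). CCNE2, a cyclin that partners CDK2, fell by 0.12 on the log2 scale (SE 0.041, adjusted p = 0.0308). CCNE2 did not pass without siNC replicate 1 (0.11, log2 fold change -0.08), siNC replicate 2 (0.0532), siELF5 replicate 2 (0.087) or siELF5 replicate 3 (0.093), and was at 0.05 with the GC score as a covariate (0.841). In GENCODE 29, 37.1% of its exon bases lie opposite exons of other genes. CCNE1, whose level per kilobase was among the lowest of the members, lay at -0.03 (95% interval -0.18 to 0.11).

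Changes were set beside transcript GC content. Of the 2331 tested genes with a transcript GC content of at least 60%, 54.2% were called higher and 5.71% lower (median 0.32 on the log2 scale). The 4 members in that class were CDT1, POLD1 and TK1, which rose, and E2F1, which fell. Among the 46 members below 60%, 8 rose and 19 fell, beside 18.7% and 27.3% of the 12610 tested genes in that range. After the GC correction 12 members were higher and 15 lower, where 23.4% and 26% of the corrected genes were called, and 23 of the 31 called members passed again in the same direction, 9 upward and 14 downward. With the GC score as a covariate DTL, GINS1 and RPA1 were higher and CDC45 and POLA1 lower, and the other called members did not pass.

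**Figure D4:**
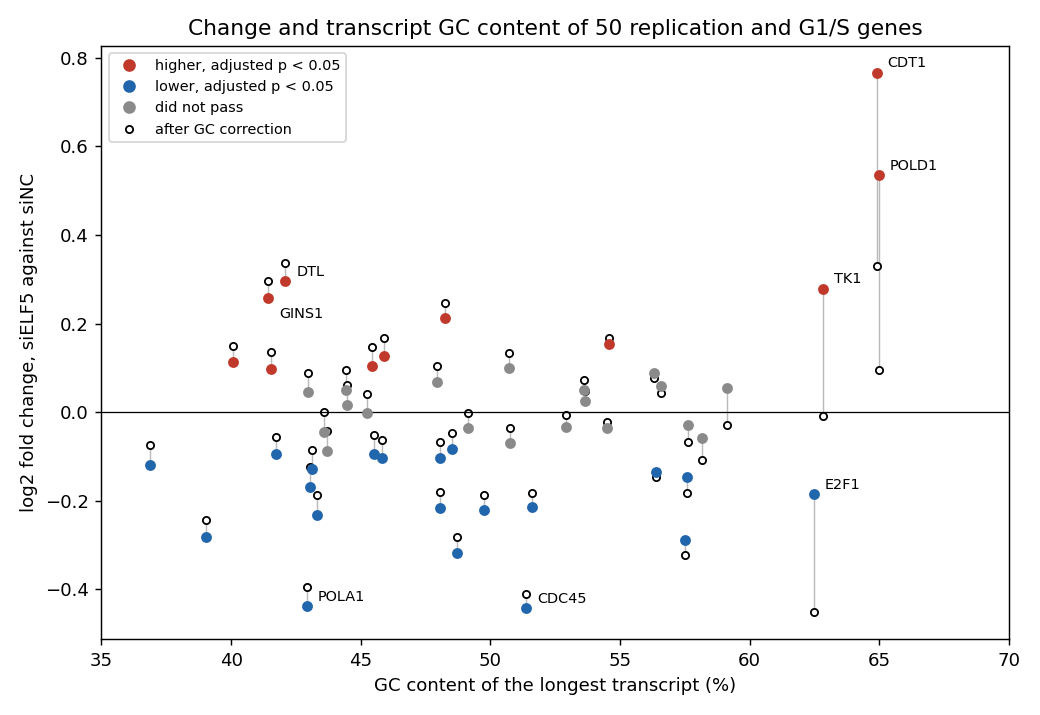
Log2 fold change of the 50 genes against the GC content of their longest GENCODE 29 transcript, before (filled, coloured by call) and after (open) a per-library GC correction. Most open points lie close to their filled ones, while CDT1, POLD1, TK1 and E2F1, above 60% GC, lie lower after the correction.

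Members with and without an E2F motif in the promoter were compared as counts only. Of the 21 with a match, 11 were lower and 4 higher (median -0.09 on the log2 scale). Of the 22 without a match, 5 were lower and 6 higher (median 0.04). Over all tested genes 23.3% were lower and 23.8% higher, shares near those of the class without a match. POLD1 and TK1, which rose but did not pass after either GC adjustment, are in that class. CDC45, MCM10, CHAF1B and RPA1 are among those without a match in the window searched, and GINS1, DTL, CDT1 and UHRF1 rose and hold a match. The difference between the classes was not tested.

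A pair of 7-base motifs in the 3′ UTR, CACTAAC and ACTAACA, taken from an earlier search of these data for letters that go with the direction of change, is shown because the member with the smallest adjusted p carries it. In the longest GENCODE 29 transcript it was present in 18% of tested genes that fell, 6.52% of those that rose and 11.3% of all 13420 searched. Because the motif was chosen from these data for that difference, the shares are no test of it. Among the members POLA1, MCM6 and GINS4 carry it (3 of 50), a smaller share than over all searched genes. Of these POLA1 and MCM6 fell and GINS4 did not pass. The sites of the 2 that fell are printed with the motif in capitals, and that of GINS4 is not shown.
POLA1: taagattatACTAACAaaatgtttc
MCM6: gtttatgatACTAACAgttcctgag

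The POLA1 site begins at base 913 and the MCM6 site at base 800 of the 3′ UTR. The part of the motif in these changes was not tested.

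Further genes of the pathway came from lists that hold no member. Among 33 further replication factors 11 were lower (33.3%) and 6 higher (18.2%), with a median of -0.03 on the log2 scale. Of all tested genes 23.3% were lower and 23.8% higher. DNA2, a nuclease of the lagging strand, fell by 0.27 on the log2 scale (SE 0.035, limma adjusted p = 5.35e-05). RNASEH2C, a subunit of the enzyme that removes ribonucleotides from DNA, rose by 0.52 (SE 0.065, adjusted p = 3.75e-05). With the GC score as a covariate neither passed, with DNA2 at -0.18 (adjusted p = 0.265) and RNASEH2C at 0.26 (0.320). CHTF18, a subunit of an alternative clamp loader, rose by 1.06 (SE 0.139, adjusted p = 4.82e-05), but its transcript is very GC-rich (69.1%). Its log2 fold change was 0.32 after the GC correction (adjusted p = 0.000618) and -0.06 with the GC score as a covariate.

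Of 12 further nucleotide supply genes, 4 fell (33.3%) and 3 rose (25%), beside 23.3% and 23.8% of all tested genes. RRM2B, the alternative small subunit of ribonucleotide reductase, rose by 0.30 (SE 0.036, limma adjusted p = 2.53e-05), opposite in sign to RRM2. SAMHD1, which degrades deoxynucleotides, rose by 0.31 (SE 0.046, adjusted p = 0.000118), and DCK, the deoxycytidine salvage kinase, fell by 0.37 on the log2 scale (SE 0.053, adjusted p = 0.000116). With the GC score as a covariate RRM2B passed at 0.32 (adjusted p = 0.043). SAMHD1 at 0.23 (0.270) and DCK at -0.23 (0.327) did not.

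The 28 G1/S regulators included 27 that could be tested, since CCND2 was below the minimum level. Of the 27, 8 rose and 8 fell (29.6% each), beside 23.8% and 23.3% of all tested genes. CCND1, cyclin D1, rose by 0.59 (SE 0.036, limma adjusted p = 7.46e-08), and CDK2, the kinase partner of cyclin E, by 0.30 (SE 0.033, adjusted p = 1.12e-05). CDC25A, the phosphatase that activates CDK2, fell by 0.38 on the log2 scale (SE 0.040, adjusted p = 9.48e-06). With the GC score as a covariate CCND1 and CDK2 passed at 0.42 and 0.29 (adjusted p = 0.00254 and 0.0458). CDC25A did not, at -0.29 (0.108). The kinase rose where CCNE2 and CDC25A fell.

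Among 12 histone supply and replication-coupled chromatin genes 6 were higher and 2 lower (median 0.15 on the log2 scale), beside 23.8% and 23.3% of all tested genes. After the GC correction 6 were higher and 1 lower, with a median of 0.15. With the GC score as a covariate 0 of the 12 passed in limma (3 at an unadjusted p under 0.05), and their median was 0.01. The median standard error over the 12 went from 0.038 to 0.099 with that score. ASF1B, a histone chaperone that hands histones to CAF-1, rose by 0.24 (SE 0.038, limma adjusted p = 0.000212), and NASP, another histone chaperone, fell by 0.23 on the log2 scale (SE 0.035, adjusted p = 0.000197). TONSL, which binds new histones behind the fork, rose by 0.73 (SE 0.111, adjusted p = 0.000154), with a transcript GC content of 65.7%. Its log2 fold change was 0.24 after the GC correction (adjusted p = 0.00209) and -0.15 with the GC score.

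For comparison with the next phase of the cycle, 25 genes of G2/M and mitosis were set beside the members. Of the 25, 9 were lower (36%) and 4 higher (16%), beside 23.3% and 23.8% of all tested genes. Their median was -0.05 on the log2 scale, beside -0.04 for the members. FOXM1, which drives mitotic transcription, was lower, at -0.32 on the log2 scale (SE 0.035, limma adjusted p = 1.29e-05) and KIF20A, a mitotic kinesin, by 0.16 (SE 0.030, adjusted p = 0.000708). With the GC score as a covariate FOXM1 passed at -0.32 (adjusted p = 0.0413) and KIF20A did not, at -0.13 (0.411). UBE2C, the ubiquitin-conjugating enzyme of the anaphase-promoting complex, rose by 0.34 (SE 0.053, adjusted p = 0.000208). Its log2 fold change was 0.38 after the GC correction and 0.07 with the GC score as a covariate (adjusted p = 0.765). The difference between the replication and the mitosis genes was not tested.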

How the data were processed

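RNA of 6 T47D libraries was analysed from 1 table of the series. The submitters' processing notes name STAR 2.6, Subread, featureCounts 1.6.3, DESeq2 1.22.1 and build hg19. Their settings, strand included, were not given in any source used. The deposited value of each gene and library is a signal: its read count after division by that library's size factor. Each non-zero value was a whole multiple of the lowest in its column (100% of values, tolerance 1e-06), so whole reads were recovered, which also gave the depth. The authors' deposited log2 fold change, score (that change over its standard error) and p-value served only for comparison.

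The main test was limma 3.58.1 (R 4.3.3), two-sided, with an intensity trend and no covariates, on log2(value + 1). It ran on the 16032 genes whose mean reached 10, with Benjamini-Hochberg adjustment over all of them and a threshold of 0.05. On this scale the changes of low genes are understated, and the lowest mean of a member in siNC was 1067. Alternatives included edgeR 4.0.16 and DESeq2 1.42.0 on the recovered reads, other filters, pseudocounts and scalings, 2 GC adjustments, a replicate block and each library left out. Replicate pairs of a group differed beyond sampling noise, with chi-square values of 4.37 to 12.0 for each degree of freedom. The tests were tried on simulated data. Transcript GC content and length are those of the longest transcript in GENCODE 29, known for 93.2% of tested genes. The GC correction subtracts from each library a robust loess curve (span 0.3) of its deviations on GC content. Printed coordinates are those of RefSeq's promoters in GRCh38.p14, not of the build the authors used.

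The members and lists were chosen with earlier results of these data known. The genes named are all members, ELF5, the cell type markers and, from each further list, the 3 or fewer called genes of smallest adjusted p. Outside that rule, E2F3 to E2F8 were named after their values were seen, and CCND2 as the gene below the minimum level.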

Additional observations from a re-analysis of the deposited data

How the results depend on the processing

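The counts of 11 members higher and 20 lower were recomputed under 19 alternatives. Without the intensity trend 6 were higher and 13 lower. Equal column totals, which moved the median of all genes by 0.03 on the log2 scale, gave 13 lower and a member median of -0.00493, and quantile scaling, which moved it by -0.03, gave a member median of -0.017. The GC score as a covariate gave 3 higher and 2 lower. Leaving out 1 library gave 7 to 13 members higher, 13 to 19 lower and a median of -0.0587 to -0.0207. CDC45 and POLA1 (lower) and DTL, GINS1 and RPA1 (higher) passed under all 19.

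Single log2 fold changes changed sign as follows. PCNA became 0.0294 under equal totals and 0.0293 under quantile scaling, 0.00170 with edgeR, 0.0414 after the GC correction with and without the replicate block, 0.142 with the GC score, and lay between -0.0308 and 0.0393 when a library was left out. CHAF1A became 0.00266 under equal totals. POLD2 and TK1 became -0.0279 and -0.00959 after the GC correction with and without the block, and -0.119 and -0.0243 with the GC score. With the GC score GMNN became 0.0465, MCM5 -0.0961, POLA2 0.0146, POLD1 -0.223, POLE2 0.0308, RFC2 -0.0205, LIG1 -0.0402, UHRF1 -0.0422 and CCNE2 0.0457. CCNE1 ranged from -0.0743 to 0.0148 when a library was left out. Of these, TK1, POLD1, UHRF1 and CCNE2 had been called. The cause was not tested.

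Replicate numbers did not pair the libraries: same-number deviations correlated at 0.0146, -0.0345 and -0.0560, and not every library correlated best with its own number. A replicate block gave 9 higher and 18 lower. With 3 libraries a group, differences of about 0.1 on the log2 scale lay near what the test could call for a typical member. The median standard error over the members was 0.039, but it was 0.102 for POLD1, so that limit differs between genes.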

Other observations

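The E2F family beyond E2F1 and E2F2, picked for mention after its values were seen, moved in both directions. E2F5, a repressor-class member, had 2740, 2641 and 2704 normalised reads in siNC and 2050, 2058 and 1910 in siELF5, without overlap (log2 fold change -0.43, SE 0.048, limma adjusted p = 1.39e-05). E2F8, an atypical repressor, was lower by -0.34 (SE 0.051, adjusted p = 0.000153). E2F7, the other atypical repressor, was higher in all 3 siELF5 libraries, with 4702, 4701 and 4608 normalised reads in siNC and 5689, 5724 and 5709 in siELF5 (log2 fold change 0.29, SE 0.034, adjusted p = 2.29e-05). E2F3 and E2F4 were lower by -0.18 and -0.15 (adjusted p = 0.0102 and 0.0373), and E2F6 lay at -0.12 (adjusted p = 0.0549). After the GC correction E2F5, E2F7 and E2F8 stood at -0.39, 0.33 and -0.30. With the GC score as a covariate E2F5 and E2F7 passed at -0.42 and 0.33 (adjusted p = 0.0497 and 0.0375). E2F8, E2F3 and E2F4 did not pass with that score, at -0.28, -0.02 and -0.18 (adjusted p = 0.225, 0.944 and 0.489).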
